A study of Mus musculus with 8 samples.

Results

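The interferon response genes described here are 10 mouse genes: the transcription factor Irf7, the ubiquitin-like modifier Isg15 and its deconjugating enzyme Usp18, the RNA-binding proteins Ifit1, Ifit2 and Ifit3, the antiviral enzymes Oasl2 and Rsad2, the membrane protein Bst2 and the nucleic acid sensor Zbp1. They were taken by gene symbol from a table of 31053 genes, and all 10 were present. A droplet 3′ assay had been run on dissociated mucosa of the distal colon, with 1 library from each of 8 mice aged 8 weeks. The KO-labelled mice (2, 3, 6 and 7) carried Vil1::Cre, a recombinase driven by the villin promoter of the intestinal epithelium, and floxed alleles of the signalling inhibitor Spry2. The WT-labelled mice (1, 4, 5 and 8) were littermates with the floxed alleles and no Cre, so the floxed locus was common to both groups. The tables held 53080 cells in 11 classes named by the authors.

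Interferons are secreted when cells sense foreign nucleic acid. Type I interferons signal through the receptor of Ifnar1 and Ifnar2 in most cell types, and type III interferons through Ifnlr1 and Il10rb, chiefly in epithelium. Both signal through the kinases Jak1 and Tyk2 to a complex with Irf9, which binds the interferon-stimulated response element (ISRE) in the promoters of genes such as those described here. Type II interferon, the product of Ifng, signals through Ifngr1 and Ifngr2 to genes with a gamma-activated site (GAS). In the gut, a low level of such transcripts is also kept up in the absence of overt infection.

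The libraries held 17.04 M to 37.3 M transcript counts (unique molecular identifiers, UMIs) and 3302 to 10101 cells each, with a median of 2137 UMIs per cell. Spry2, the targeted gene, stood at 10.4, 13.3, 15.7 and 49.3 CPM (UMIs of a gene for each 1 M UMIs) in epithelial cells of the KO-labelled mice and at 11.2, 17.6, 27.7 and 37.6 CPM in the WT-labelled mice. The groups overlapped; whether the counted 3′ end lies in the deleted part is not given in the sources used here, so these counts check nothing, and libraries are named by their label. The share of epithelial cells with 50% or more mitochondrial UMIs was 79.6%, 69.0%, 18.5% and 13.6% in KO-labelled mice 2, 3, 6 and 7, against 78.8%, 53.5%, 37.2% and 11.1% in WT-labelled mice 1, 4, 5 and 8. In all, 356 cell barcodes occurred in more than 1 library, in 719 cells. No epithelial cell of the KO-labelled mice carried a subtype name, against 6502 of 13229 in the WT-labelled mice. The 6 epithelial marker genes summed to 9086 CPM in epithelium of KO-labelled mice and 10856 CPM in that of WT-labelled mice, and the 3 endothelial markers to 3065 CPM in endothelium of KO-labelled mice and 3447 CPM in that of WT-labelled mice. CPM is computed here from the UMIs of all cells of a class in a mouse, for classes with at least 20 cells in that mouse, and a difference in such a sum cannot tell fewer cells expressing a gene from less RNA per cell.

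The ISRE core GAAANNGAAA was searched on both strands of the RefSeq promoter windows (build GRCm38.p6, 250 bases before to 50 after the gene start), which covered 8 of the 10 genes. Overlapping matches were allowed. The core occurred in 5 of the 8 (Isg15, Ifit1, Ifit3, Rsad2 and Bst2), against 3.99% of all 27025 genes with a window. It also occurred in 21 of 59 genes with a window in the interferon pathway lists used below. It did not occur in the windows of Irf7, Oasl2 and Ifit2. The GAS core TTCNNNGAA occurred in a window of Bst2 and of Ifit2, against 9.55% of all 27025 genes. The 250 bases before the start are shown for the 4 genes with a match whose levels the results below turn on. Capitals mark the ISRE core, in either orientation, and each sequence runs 5′ to 3′ on the gene's strand. The windows are chr4:156200819-156201068 on the minus strand for Isg15, chr19:34640639-34640888 on the plus strand for Ifit1, chr12:26456453-26456702 on the minus strand for Rsad2, and chr8:71537473-71537722 on the minus strand for Bst2.
Isg15: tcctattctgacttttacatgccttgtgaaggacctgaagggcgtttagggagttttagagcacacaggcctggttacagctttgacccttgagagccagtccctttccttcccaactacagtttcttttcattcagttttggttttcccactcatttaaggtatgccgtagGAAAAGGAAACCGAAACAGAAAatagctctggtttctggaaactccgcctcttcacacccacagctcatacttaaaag
Ifit1: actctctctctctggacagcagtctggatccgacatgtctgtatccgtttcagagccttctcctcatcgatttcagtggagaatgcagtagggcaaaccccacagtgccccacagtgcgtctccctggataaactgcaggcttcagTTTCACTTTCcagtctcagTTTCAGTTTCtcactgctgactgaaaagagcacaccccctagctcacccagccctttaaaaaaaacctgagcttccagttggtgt
Rsad2: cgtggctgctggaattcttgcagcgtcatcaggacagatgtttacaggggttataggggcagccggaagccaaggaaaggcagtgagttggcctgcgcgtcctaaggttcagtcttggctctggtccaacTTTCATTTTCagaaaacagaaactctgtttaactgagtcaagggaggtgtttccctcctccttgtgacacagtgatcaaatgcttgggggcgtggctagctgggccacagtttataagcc
Bst2: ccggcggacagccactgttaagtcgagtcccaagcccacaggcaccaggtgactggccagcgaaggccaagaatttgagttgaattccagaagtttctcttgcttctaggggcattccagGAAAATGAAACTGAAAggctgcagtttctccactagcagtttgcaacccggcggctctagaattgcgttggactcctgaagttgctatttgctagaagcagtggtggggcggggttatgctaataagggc
Isg15 held 3 overlapping matches in a run and Bst2 held 2, while the 2 matches of Ifit1 were apart. A match is a string of letters and was not tested as a binding site. In the mm10 annotation (GENCODE M21) all 10 are protein-coding genes, and Ifit2, Ifit3 and Ifit1 lie in 1 cluster on the plus strand of chromosome 19, between 34550694 and 34650009.

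The 10 genes were thinly detected. Bst2 gave 24711 UMIs and was seen in 13.1% of the cells, Irf7 gave 8378 UMIs in 10.8%, and Isg15 gave 3716 UMIs in 4.05%. Zbp1 gave 3600 UMIs in 5.55% of cells, Oasl2 1699 in 2.38%, Rsad2 1480 in 1.55%, Ifit1 1150 in 1.20% and Ifit2 877 in 1.499%. Ifit3 and Usp18 were the rarest, with 592 UMIs in 0.738% and 293 UMIs in 0.502% of cells. Ifit3 and Ifit3b, Ifit1 and Ifit1bl1, and Oasl1 and Oasl2 are pairs of related genes. How reads matching both genes of a pair were counted was not checked. The levels of Ifit1, Ifit3 and Oasl2 are uncertain to that extent.

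The members did not share 1 cell type. Among the 7 classes with at least 20 cells in 3 or more mice of each genotype, the sum of the 10 genes was highest in endothelium, at 1102 ± 221 CPM (SD, n = 6 mice), followed by lymphatics at 688 ± 119 (n = 7), macrophages at 480 ± 173 (n = 7), B cells at 421 ± 216, T cells at 209 ± 31.1, fibroblasts at 204 ± 40.5 and epithelium at 157.0 ± 29.8 CPM (n = 8 each). All orders below are among these 7 classes; smaller classes were pooled over mice, and neutrophils (32 cells) there held Isg15 at 804 CPM and Irf7 at 122 CPM. Bst2 alone held 482 CPM of the sum in endothelium, 368 CPM in B cells and 13.8 CPM in epithelium. The order of the sums therefore rests in large part on that gene. The authors' classes were used as named, and each order below is a description with no test.

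**Figure D1:**
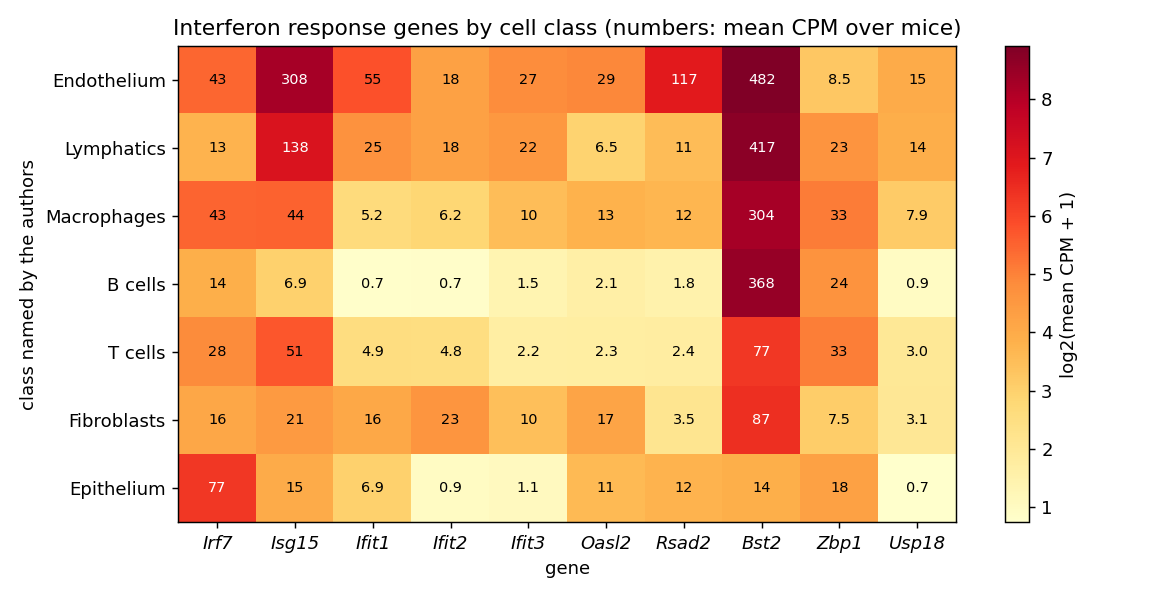
Mean CPM of the 10 interferon response genes (columns) in the 7 classes with enough cells (rows, from the highest summed level to the lowest), on a log color scale. Isg15 and Bst2 peak in endothelium at 308.4 and 481.8 CPM, while Irf7 peaks in epithelium at 77.1 CPM.

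Irf7, the transcription factor that drives the interferon-alpha genes and its own amplification loop, was the member with its highest level in epithelium. It stood there at 77.1 ± 30.03 CPM (SD, n = 8 mice), above macrophages at 43.4 ± 30.1 CPM in 6 of 7 mice. Endothelium held 42.8 ± 20.001 CPM, T cells 27.9 ± 4.22, fibroblasts 16.1 ± 2.24, B cells 13.7 ± 6.15 and lymphatics 12.6 ± 14.0 CPM. Macrophages and endothelium did not differ beyond their spread. At a fixed depth of 1000 UMIs per cell, 8.79% of epithelial cells held an Irf7 UMI (18.5% before thinning, median 1743 UMIs), against 1.33% of B cells (3.61% before thinning, median 1994 UMIs). No class is known to lack Irf7, so the share in B cells is a comparison and not a background level.

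Isg15, which is conjugated to other proteins and also secreted, was highest in the 2 vessel classes. It stood at 208, 229 and 279 CPM in endothelium of KO-labelled mice 3, 6 and 7, and at 330.1, 293 and 512 CPM in WT-labelled mice 4, 5 and 8. Lymphatics held 138 ± 43.8 CPM (n = 7), below endothelium in 6 of 6 mice with both classes and above T cells (51.0 ± 24.6 CPM) in 7 of 7. T cells and macrophages (44.3 ± 35.4 CPM) did not keep an order, with T cells higher in 5 of 7 mice. Epithelium, at 14.7 ± 3.54 CPM, was above B cells, at 6.88 ± 2.33 CPM, in 8 of 8 mice. Thinned to 1000 UMIs, 21.1% of endothelial cells held an Isg15 UMI, against 0.835% of B cells. Usp18, which removes Isg15 from its targets and damps the type I receptor, also had its highest means in the 2 vessel classes. It averaged 14.7 ± 14.8 CPM in endothelium, 14.1 ± 10.3 in lymphatics, 7.87 ± 7.07 in macrophages and 0.670 ± 0.26 in epithelium. The lowest value was 0 CPM in each of the first 3, so their order is uncertain. Endothelium was above lymphatics in 1 of 6 mice, and lymphatics above macrophages in 4 of 6. The 58 epithelial UMIs of Usp18 were spread over 51 of 23787 cells.

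The Ifit genes, whose products bind viral RNA, differed among themselves. Ifit1 stood at 54.6 ± 20.1 CPM in endothelium, 24.7 ± 16.3 in lymphatics and 15.7 ± 7.24 in fibroblasts. Endothelium was above lymphatics in 5 of 6 mice, but lymphatics were above fibroblasts in 3 of 7. Ifit2 was highest in fibroblasts, at 23.1 ± 8.61 CPM, with endothelium at 18.5 ± 17.02 and lymphatics at 18.4 ± 13.8 CPM, a difference within the spread between mice. The fibroblast UMIs of Ifit2 were scattered over many cells, 594 UMIs in 537 cells. Ifit3 stood at 27.3 ± 14.5 CPM in endothelium and 22.2 ± 17.6 in lymphatics, and at 10.4 ± 9.40 CPM in macrophages, where 5 cells held 59.1% of its UMIs. In epithelium Ifit1 reached 6.91 ± 4.08 CPM, while Ifit2 and Ifit3 stayed at 0.942 ± 0.48 and 1.07 ± 0.61 CPM.

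Oasl2, of the oligoadenylate synthetase family, stood at 29.2 ± 27.5 CPM in endothelium, 16.9 ± 6.55 in fibroblasts, 12.9 ± 8.99 in macrophages and 11.2 ± 3.17 in epithelium, and its ranges overlapped among these classes. Rsad2 encodes viperin, a radical SAM enzyme that makes a chain-terminating nucleotide. It stood at 104, 66.7 and 113 CPM in endothelium of KO-labelled mice 3, 6 and 7, and at 45.0, 337 and 35.3 CPM in WT-labelled mice 4, 5 and 8. The mean was 117 ± 112 CPM and, without WT-labelled mouse 5, 72.7 ± 34.5 CPM, and endothelium was above epithelium (12.47 ± 4.40 CPM) in 6 of 6 mice. The 141 endothelial UMIs of Rsad2 came from 66 cells. In macrophages, in contrast, 5 cells held 73.1% of its 52 UMIs, and the corresponding share was 54.4% in fibroblasts and 59.4% in T cells.

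Bst2 encodes tetherin, which holds budding virus particles at the cell surface and is also known from plasma cells. Endothelium held 482 ± 127 CPM, lymphatics 417 ± 106, B cells 368 ± 223 and macrophages 304 ± 120 CPM, with fibroblasts at 86.6 ± 22.9, T cells at 77.5 ± 12.8 and epithelium at 13.8 ± 4.22 CPM. Macrophages were above fibroblasts in 7 of 7 mice and T cells above epithelium in 8 of 8. The wide spread among B cells, with 111, 283, 515 and 783 CPM in the KO-labelled mice and 135, 241, 440.3 and 436 CPM in the WT-labelled mice, stood beside a varying makeup of the class. Plasma cells held 731 ± 248 CPM of Bst2, against 56.3 ± 16.7 CPM in mature B cells, 13.0 times as much and higher in 8 of 8 mice. At 1000 UMIs per cell, 47.5% of plasma cells and 5.21% of mature B cells held a Bst2 UMI (88.1% and 9.56% before thinning, median depths 12356 and 1893 UMIs). Plasma cells made up 46 of 1727, 132 of 1690, 290 of 1974 and 367 of 1553 cells of the class in the KO-labelled mice, and 114 of 1898, 182 of 3850, 326 of 1831 and 81 of 177 in the WT-labelled mice, and their part in the class level was not tested. Zbp1 was higher in plasma cells too, at 37.5 ± 13.9 against 13.0 ± 6.3 CPM in 8 of 8 mice. Irf7 ran the other way, at 7.50 ± 3.1 CPM in plasma cells against 17.3 ± 7.0 CPM in mature B cells, lower in 8 of 8 mice. Of the 10 genes 2 were higher in plasma cells in all 8 mice against 7.36% of 12654 genes compared. Another 2 of the 10 were lower in all 8 mice, as were 5896 of the 12654 genes. The median ratio over all genes was 0.46, so a lower level in plasma cells was common.

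Zbp1, a sensor of Z-form nucleic acid that can trigger necroptosis, was the 1 member lower in blood endothelium than in epithelium in each of 6 mice. The endothelial values were near the floor, from 0 to 19.0 CPM in sums of 20 to 72 cells, so this order is uncertain. Macrophages held 33.4 ± 14.9 CPM, T cells 32.8 ± 5.84, B cells 24.0 ± 7.99, lymphatics 23.4 ± 19.9, epithelium 18.1 ± 3.87, endothelium 8.51 ± 8.57 and fibroblasts 7.49 ± 4.15 CPM. T cells were above B cells in 7 of 8 mice, and epithelium above endothelium in 6 of 6. Endothelium held more than epithelium in all 6 mice for 5 of the 10 genes (Ifit1, Ifit3, Isg15, Bst2 and Rsad2, with ratios of 8.09, 29.9, 21.7, 30.4 and 9.03) and less for Zbp1, against 15.2% of 14251 genes higher in all 6. Of the 14251 genes, 3150 were lower in all 6. Plasma cell markers summed to a mean of 7339 CPM (52.0 to 17025) in endothelium of the KO-labelled mice and 279 CPM (17.6 to 720.3) in endothelium of the WT-labelled mice, and their part in the endothelial level of Bst2 was not tested.

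Among T cell subtypes, KO-labelled mouse 7 held the highest Isg15 in ILC1-NK and regulatory T cells. ILC1-NK cells held Isg15 at 87.3, 60.9, 99.2 and 330.0 CPM in KO-labelled mice 2, 3, 6 and 7, against 82.8, 25.7, 55.6 and 11.4 CPM in WT-labelled mice 1, 4, 5 and 8. Regulatory T cells held it at 81.0, 19.2, 114 and 190.2 CPM in the KO-labelled mice and at 96.1, 56.5 and 98.5 CPM in WT-labelled mice 1, 4 and 5. Ifit1 was at 91.3 CPM in ILC1-NK cells of KO-labelled mouse 7, against 0 to 6.6 CPM in the other KO-labelled mice and 0 in each WT-labelled mouse. With all qualifying mice in the fit, no member passed the expression filter in ILC1-NK cells, IELs or ILC2 cells, so no test result is given there.

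Within the epithelium of the WT-labelled mice, the authors' subtypes separated the members strongly. Irf7 stood at 156, 228, 232 and 265 CPM in enterocytes of mice 1, 4, 5 and 8, against 23.1, 38.2, 25.4 and 45.0 CPM in stem-progenitor cells, 6.70 times as much on average. Rsad2 stood at 39.6, 35.1, 39.5 and 27.1 CPM in enterocytes, against 1.73, 3.1, 5.1 and 2.3 CPM in stem-progenitor cells, a ratio of 11.53. The 2 cell types did not overlap for either gene.

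Ifit1 averaged 17.9 ± 5.62 CPM in enterocytes and 2.13 ± 1.18 in stem-progenitor cells, Isg15 35.4 ± 10.4 and 13.2 ± 8.49, Oasl2 28.0 ± 7.56 and 10.2 ± 2.84, and Zbp1 37.0 ± 8.999 and 16.3 ± 2.44 CPM. Bst2 ran the other way, at 4.62 ± 2.23 CPM in enterocytes and 15.9 ± 3.71 CPM in stem-progenitor cells. Ifit2 and Usp18 averaged under 1 CPM in both. In all, 7 of the 10 genes were higher in enterocytes in each of the 4 mice (Ifit1, Ifit3, Isg15, Irf7, Oasl2, Zbp1 and Rsad2), against 12.9% of 12782 genes. Bst2 was lower in each of the 4 mice, as were 7521 of the 12782 genes. At 1000 UMIs per cell, 20.8% of enterocytes and 3.71% of stem-progenitor cells held an Irf7 UMI (41.0% and 22.3% before thinning, median depths 2257 and 9138 UMIs).

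The subtypes differed in mitochondrial content, with a median of 37.3% of UMIs in enterocytes, 17.3% in stem-progenitor cells and 73.6% in unnamed epithelial cells. With mitochondrial genes out of the total, Irf7 averaged 333 CPM in enterocytes and 39.8 CPM in stem-progenitor cells, and in cells under 50% mitochondrial UMIs 241 and 33.3 CPM. Since the subtypes were named from the same cells' transcripts, these differences are descriptions.

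**Figure D2:**
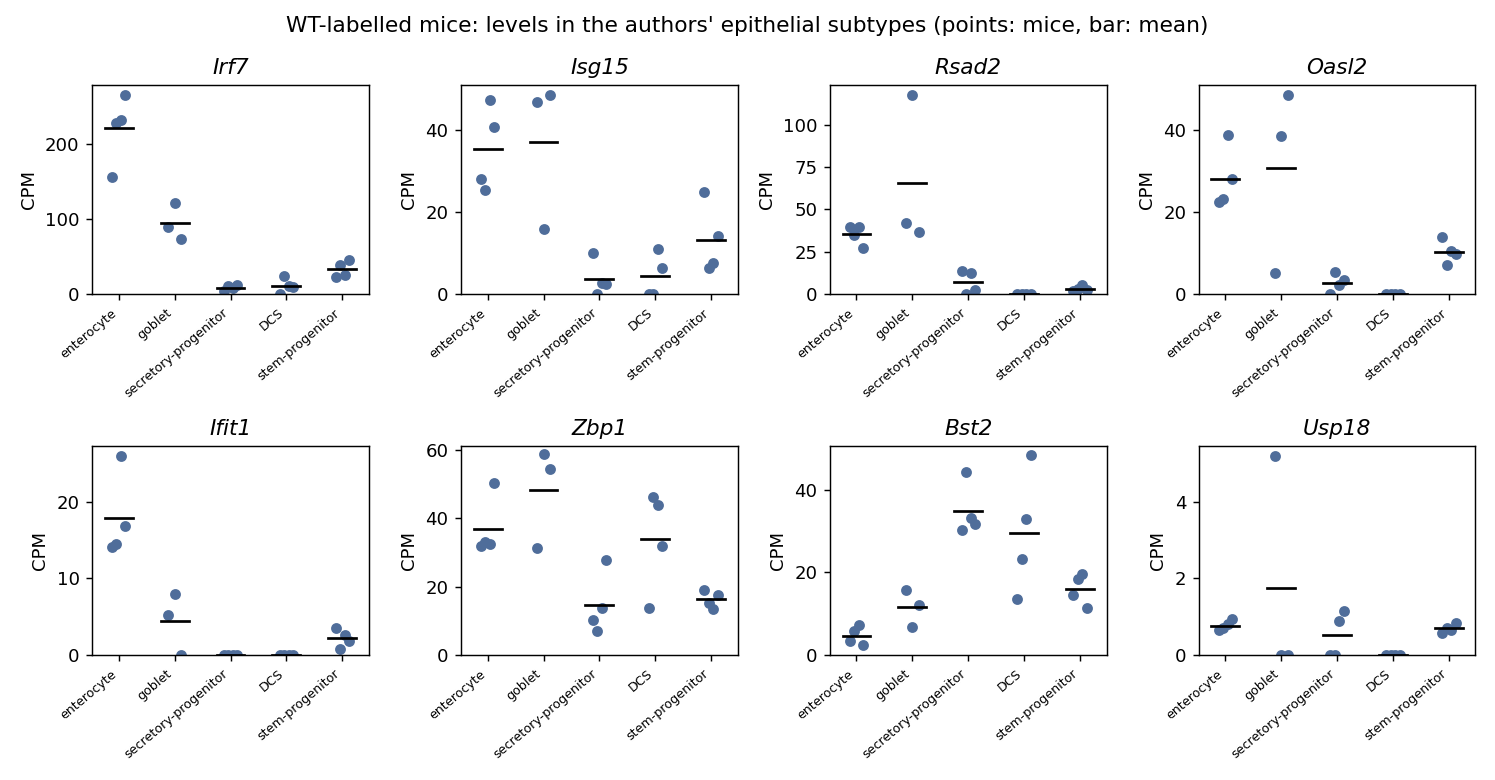
CPM of interferon response genes in the epithelial subtypes of the WT-labelled mice (x axis), a point for each mouse and a bar at the mean. Irf7, Rsad2 and Ifit1 sit higher in enterocytes than in stem-progenitor cells in each of the 4 mice, and Bst2 sits lower.

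Goblet cells, named in 3 mice with enough cells, held Rsad2 at 41.7, 118 and 36.4 CPM, Zbp1 at 31.3, 58.8 and 54.7 CPM and Irf7 at 88.7, 121 and 72.9 CPM in mice 4, 5 and 8. Secretory-progenitor cells held little Irf7 (8.3 ± 3.7 CPM, n = 4) and the highest mean of Bst2 among the subtypes summed in 4 mice (34.9 ± 6.4 CPM). Cells named DCS held 0 UMIs of Ifit1, Ifit2, Ifit3, Oasl2, Usp18 and Rsad2, with Bst2 at 29.5 ± 14.9 and Zbp1 at 33.9 ± 14.98 CPM. These 441 cells had a median of 1167 UMIs, the lowest of the named epithelial subtypes, so 0 UMIs does not show absence. Their median mitochondrial share was 0.309%, against 37.3% in enterocytes, which also bears on their CPM. Tuft cells, in mice 5 and 8, held Irf7 at 54.2 and 125 CPM.

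Other genes of the pathway in enterocytes and stem-progenitor cells did not all follow the members. Ifngr1, the ligand-binding chain of the type II receptor, stood at 477 CPM in enterocytes and 232 CPM in stem-progenitor cells, Irf1, a transcription factor induced by interferon, at 133 and 64.2 CPM, and Socs1, a feedback inhibitor, at 16.7 and 6.33 CPM. The 3 genes were higher in enterocytes in 4 of 4 mice. Irf8, a transcription factor best known from myeloid cells, was lower in enterocytes in 4 of 4 mice, at 16.9 CPM against 66.5 CPM in stem-progenitor cells. Of 34 further interferon-stimulated genes with enough UMIs, 15 were higher in enterocytes in every mouse and 4 were lower. Of all 12782 genes compared, 1648 were higher in every mouse and 7521 were lower, with a median ratio of 0.57.

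Of the type I and type III interferons, only Ifnb1, Ifna4, Ifnk, Ifnl2 and Ifnl3 were looked at. Their transcripts were rare or not seen. Across these classes, Ifnb1 gave 1 UMI in macrophages and Ifna4, Ifnl2 and Ifnl3 gave 0, while Ifng gave 585 UMIs in T cells at 45.8 ± 17.7 CPM. Ifnlr1 was highest in epithelium, at 7.04 ± 1.30 CPM, Ifnar1 in macrophages at 123 ± 29.5 CPM and Ifnar2 in endothelium at 152 ± 58.5 CPM. Epithelial Ifnar2 stood at 2.72 ± 1.06 CPM. Of 35 further interferon-stimulated genes, in the same 7 classes, 16 were highest in endothelium, 7 in macrophages, 5 in epithelium, 3 in lymphatics, and 2 each in fibroblasts and T cells. The 5 in epithelium were Ddx60, Ifit1bl1, Oas1a, Oasl1 and Parp9. Ifit1bl1, a neighbour and relative of Ifit1, reached 156 ± 82.4 CPM in epithelium, against 6.91 ± 4.08 CPM for Ifit1 itself. Irf1 was highest in endothelium, at 636 ± 111 CPM.

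Across the 55 sums of a class in a mouse, the member closest to the mean of the other members was Isg15 (Pearson r = 0.71), followed by Ifit1 (0.70), Ifit3 (0.61), Rsad2 (0.59) and Usp18 (0.55). Bst2 (0.20), Irf7 (0.16) and Zbp1 (-0.18) were far from it. Among 11844 other genes the most alike were Eif2ak2, Arhgef7, Dock4, Ptpn12, Itm2b, Slfn5, Rtp4 and Irgm2, with r between 0.70 and 0.72. These sums share libraries, classes and depth, so the values describe the pattern only.

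The genotype comparison asked whether the members differed between KO-labelled and WT-labelled mice within a class. No member passed an adjusted p of 0.05 in any of the 7 classes and 8 subtypes in which members were tested (edgeR's quasi-likelihood test, Benjamini-Hochberg adjustment over all genes tested). In epithelium, where the deletion was directed, 7 of the 10 genes passed the expression filter. Of 11723 genes tested there 0 were called (0%), 96 had an unadjusted p under 0.05, and DESeq2 also called 0. Several members differed between the epithelial subtypes described above, which were named in the WT-labelled mice only. The mix of subtypes in the epithelial sums could therefore not be compared between genotypes. Its part in the values of each mouse below was not tested.

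Ifit1 had the smallest p of the epithelial members. It stood at 10.5, 4.87, 6.37 and 15.4 CPM in KO-labelled mice 2, 3, 6 and 7, against 4.36, 5.17, 5.58 and 3.04 CPM in WT-labelled mice 1, 4, 5 and 8. KO-labelled mouse 3 fell among the WT-labelled mice. The log2 fold change, KO-labelled over WT-labelled, was 1.07 ± 0.41 (SE; 95% interval 0.16 to 1.98; unadjusted p = 0.0257 and adjusted p = 0.9999 by edgeR). The 2 highest values came from the mice with the highest and the lowest mitochondrial share among the KO-labelled mice. This describes 2 mice, and the part of mitochondrial share in the Ifit1 values was not tested.

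Irf7 stood at 141, 76.0, 64.0 and 47.2 CPM in the KO-labelled mice, against 68.4, 100.3, 55.3 and 65.3 CPM in the WT-labelled mice. Its log2 fold change was 0.37 ± 0.51 (-0.76 to 1.504), and KO-labelled mouse 2 alone lay above the WT-labelled range. Rsad2 stood at 12.48, 10.1, 13.6 and 20.01 CPM in the KO-labelled mice, against 9.71, 13.1, 15.6 and 5.14 CPM in the WT-labelled mice, with a log2 fold change of 0.36 ± 0.36 (-0.43 to 1.16). Isg15 stood at 17.5, 7.79, 19.7 and 14.6 CPM in KO-labelled mice, against 14.7, 14.4, 12.6 and 16.1 CPM for WT, and its log2 fold change was 0.10 ± 0.32. The KO-labelled mice lay on both sides of the WT-labelled range for Isg15.

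Oasl2 (0.03 ± 0.36), Bst2 (0.04 ± 0.19) and Zbp1 (-0.21 ± 0.19) had smaller log2 fold changes. Of the 7 genes 6 were higher in KO-labelled epithelium, with a median log2 fold change of 0.10, against 50.7% of all genes higher and a median of 0.00. No epithelial member separated the 2 groups, against 0.324% of all genes tested. Without KO-labelled mouse 2 the log2 fold changes of Irf7, Isg15 and Oasl2 were -0.37, -0.27 and -0.42. Isg15 was also negative without WT-labelled mouse 5 (-0.02), and Oasl2 without KO-labelled mouse 6 (-0.01) or WT-labelled mouse 8 (-0.08). Bst2 was negative without KO-labelled mouse 3 (-0.058), KO-labelled mouse 6 (-0.04), WT-labelled mouse 1 (-0.02) or WT-labelled mouse 8 (-0.04), so the direction of these 4 genes was not settled. Ifit2 (1.36, 0.61, 1.43 and 1.58 CPM in the KO-labelled mice and 0.62, 0.55, 1.08 and 0.30 CPM in the WT-labelled mice) did not pass the filter, and Ifit3 and Usp18 did not pass it either.

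**Figure D3:**
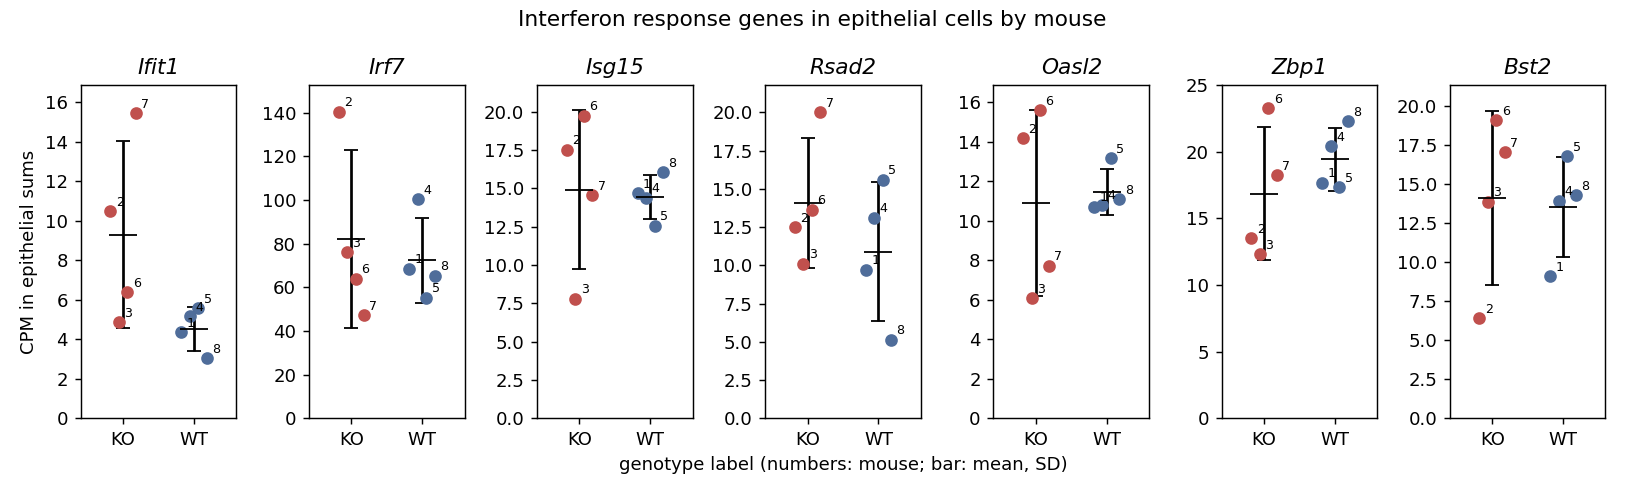
CPM of interferon response genes in the epithelial sums of each mouse, KO-labelled left and WT-labelled right in each panel, with the mouse number beside each point and a bar at the mean. The groups overlap in every panel, and Ifit1 is highest in KO-labelled mice 7 and 2, at 15.4 and 10.5 CPM.

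In epithelium the rest of the pathway showed no call either (0 genes past an adjusted p of 0.05 in edgeR). Of 12 ligands and receptors 6 were tested and all 6 were higher in KO-labelled mice, with a median log2 fold change of 0.09, including Ifnar1 (0.16) and Ifnar2 (0.26). Of 12 transducers 8 were higher, with Irf2 at 0.33 and Jak2 at 0.23. Of 10 sensors tested 6 were higher, with Ddx58 at 0.31 and Tlr3 at -0.30. Of 31 further interferon-stimulated genes 21 were higher, with a median of 0.12, with Gbp7 at 0.59 and Ifi35 at -0.23. None of these genes had an unadjusted p under 0.05.

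In the other classes the member with the smallest p differed. In B cells it was Isg15, at 5.81, 5.90, 5.53 and 4.81 CPM in the KO-labelled mice against 6.70, 12.3, 7.59 and 6.45 CPM in the WT-labelled mice. The groups did not overlap, as for 0.728% of all genes in B cells, but the log2 fold change of -0.64 ± 0.24 had an unadjusted p of 0.0220 and an adjusted p of 0.9999 (edgeR). In mature B cells alone it was -0.91 ± 0.30 (unadjusted p = 0.0095, edgeR), at 5.22, 7.60, 7.67 and 5.63 CPM in the KO-labelled mice against 7.43, 13.9, 12.4 and 23.0 CPM in the WT-labelled mice. There the ranges overlapped, while they did not for 1.53% of genes. In plasma cells it was Zbp1, at -0.51 ± 0.25.

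In endothelium Isg15, whose values per mouse are given above, did not overlap between the groups either, and nor did 9.59% of all endothelial genes. Its log2 fold change was -0.57 ± 0.30 (-1.24 to 0.09; unadjusted p = 0.0840 and adjusted p = 0.995, edgeR). Each group held 3 mice there. The plasma cell markers given above had a higher mean in endothelial sums of the KO-labelled mice, with overlapping ranges. The 6 epithelial markers summed there to 273 CPM (64.3 to 649.5) in the KO-labelled mice, against 948 CPM (583 to 1676) in the WT-labelled. The part of these markers in the Isg15 value was not tested.

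In macrophages Bst2 stood at 223, 219, 218 and 344 CPM in the KO-labelled mice, against 552, 316 and 253 CPM in WT-labelled mice 1, 4 and 5, with a log2 fold change of -0.61 ± 0.29 (unadjusted p = 0.0526, adjusted p = 0.9999, edgeR). KO-labelled mouse 7 lay within the WT-labelled range. The other 3 members tested in macrophages had positive estimates, Isg15 0.90 ± 0.52, Irf7 0.72 ± 0.51 and Zbp1 0.63 ± 0.38. Plasma cell markers summed in these macrophages to 61.2 CPM (41.3 to 90.4; 4 KO-labelled mice), against 5107 CPM (4262 to 5537; 3 WT-labelled mice). Markers of plasmacytoid dendritic cells, which include Irf8, a gene of macrophages too, summed to 777 CPM (511 to 908; KO-labelled), against 1294 CPM (775 to 2012; WT-labelled). The part of these markers in the Bst2 value was not tested. In fibroblasts Ifit1 had 0.58 ± 0.34, and among fibroblasts named CD90-pos Ifit3 had 0.95 ± 0.35 (unadjusted p = 0.0143, edgeR), at 9.05, 12.2, 7.89 and 20.01 CPM in the KO-labelled mice against 8.08, 6.88, 4.06 and 0 CPM in the WT-labelled mice. The value of KO-labelled mouse 6 lay below that of WT-labelled mouse 1, while 1.91% of genes did not overlap.

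In activated T cells Bst2 stood at 69.9, 62.5, 60.8 and 53.3 CPM in the KO-labelled mice, against 39.8, 49.1, 47.3 and 22.6 CPM in the WT-labelled mice. The groups did not overlap, as for 2.35% of genes, and the log2 fold change was 0.45 ± 0.25 (unadjusted p = 0.0910, adjusted p = 0.9999, edgeR). The smallest p in the remaining sets belonged to Isg15 in T cells as a class (0.38 ± 0.36), lymphatics (0.17 ± 0.32), memory T cells (-0.22 ± 0.38) and regulatory T cells (0.26 ± 0.46), to Bst2 in inactive T cells (0.13 ± 0.38), and to Oasl2 in the CD90-pos, Igfbp3 fibroblasts (-0.33 ± 0.27). Leaving out 1 mouse changed the sign of Isg15 in lymphatics (-0.15 without WT-labelled mouse 4), memory T cells (0.34 without WT-labelled mouse 5, 0.01 without KO-labelled mouse 6) and regulatory T cells (-0.080 without KO-labelled mouse 7), and of Bst2 in inactive T cells (-0.10 without WT-labelled mouse 1, -0.03 without WT-labelled mouse 5). No member separated the groups in fibroblasts, lymphatics, macrophages and T cells as classes, against 1.81%, 5.52%, 5.55% and 1.26% of all genes. Genes outside the 10 were called in lymphatics (5, or 0.146% of 3425), macrophages (6, or 0.111% of 5407) and activated T cells (1, or 0.0228% of 4379).

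**Figure D4:**
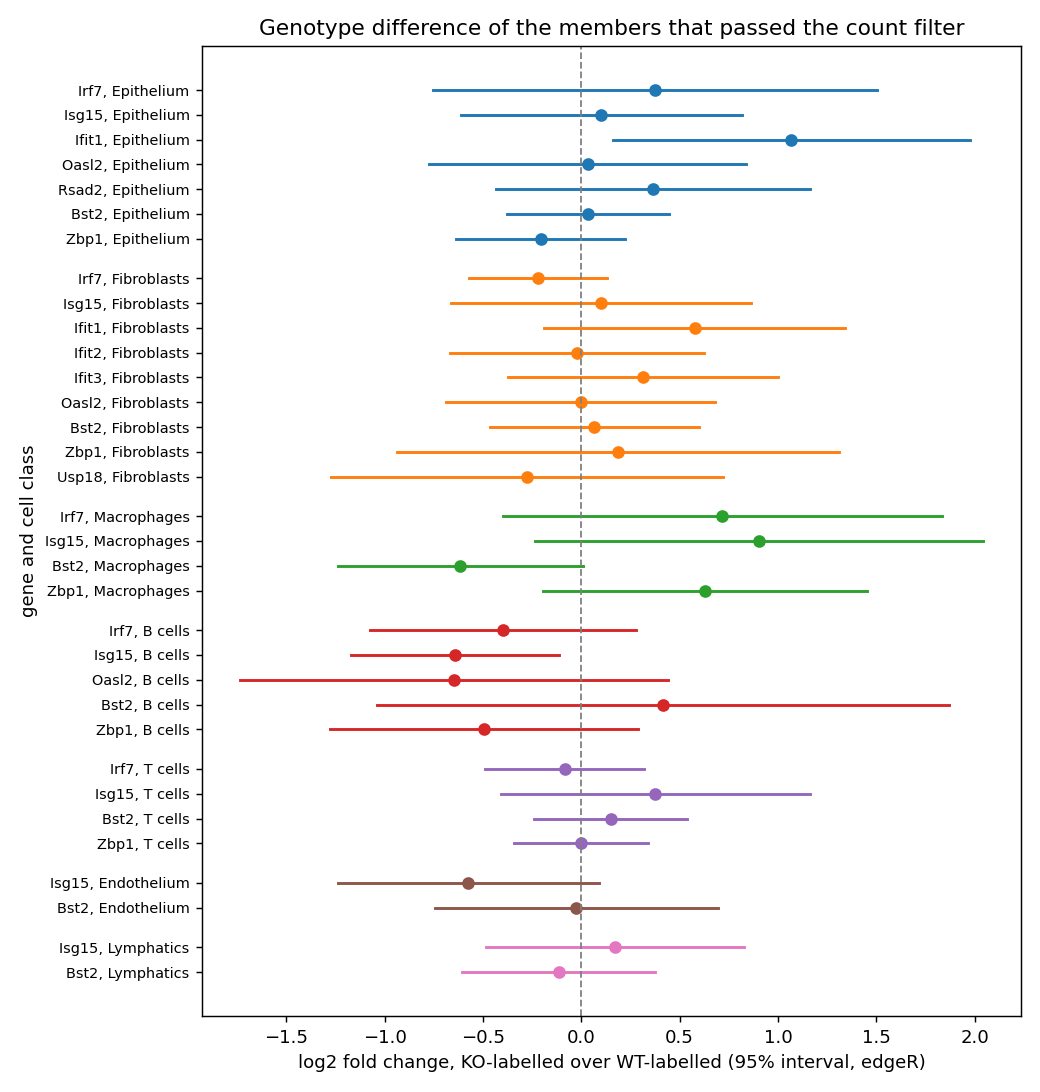
Log2 fold change, KO-labelled over WT-labelled, of each interferon response gene tested in each class, with 95% intervals from edgeR. Most intervals span 0. Those of Ifit1 in epithelium (0.16 to 1.98) and Isg15 in B cells (-1.17 to -0.11) do not, and neither passed adjustment over all genes.

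Whether the genotype difference in epithelium departed from that in the other large classes was tested as an interaction in edgeR, with mouse as a term. None of the 10 genes passed. Of 14096 genes tested 0 were called (0%), 478 had an unadjusted p under 0.05, and DESeq2 also called 0. The largest member estimates were Ifit3 at 1.29 ± 0.80 and Usp18 at 1.17 ± 0.70, with intervals from -0.35 to 2.94 and from -0.26 to 2.60. Of the 10 genes 8 were positive, against 47.9% of all genes, a share that was 57.7% (with 9 of the 10 genes) with relative log expression factors in place of TMM. Without KO-labelled mouse 2, 5 of the 10 were positive (52.9% of all genes), and without KO-labelled mouse 7 all 10 were (45.2%).

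Cells in which several members were seen together were counted after thinning to 1000 UMIs per cell. Cells with 3 or more of the 10 genes made up 5.06 ± 4.201% of endothelial cells (mean over 5 mice; 10 of 201 cells), 2.72 ± 2.11% of lymphatic cells, 1.66 ± 1.08% of macrophages, 0.472 ± 0.26% of fibroblasts, 0.335 ± 0.17% of epithelial cells (54 of 18098), 0.279 ± 0.31% of T cells and 0.1002 ± 0.18% of B cells. In WT-labelled epithelium, 0.757% of enterocytes held 3 or more (mean over mice; 18 of 2534 cells), against 0.0606% of stem-progenitor cells (2 of 2350).

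By genotype, the share in epithelium averaged 0.422 ± 0.20% in KO-labelled mice and 0.248 ± 0.063% in WT-labelled mice, after 2819 and 2870 shallower cells were left out of KO-labelled and WT-labelled mice. For fibroblasts the KO-labelled mean was 0.623 ± 0.19% and the WT-labelled mean 0.321 ± 0.26%. T cells held shares of 0, 0, 0.294% and 0.819% in KO-labelled mice 2, 3, 6 and 7, against 0.259%, 0.207%, 0.651% and 0 in WT-labelled mice 1, 4, 5 and 8. B cells held 0, 0, 0 and 0.139% in the KO-labelled mice, against 0.131%, 0.532%, 0 and 0 in the WT-labelled mice, where mouse 4 gave 17 of 19 such cells. The ranges of the 2 groups overlapped in epithelium, 0.220% to 0.680% in KO-labelled mice and 0.164% to 0.305% in WT-labelled mice. The epithelial direction turned at 2000 UMIs per cell (means of 0.736% for KO-labelled, 0.804% for WT-labelled), and with 2 or more members at 1000 UMIs the means were 1.63% (KO-labelled) and 1.61% (WT-labelled). T cells at 2000 UMIs averaged 0.473% (KO-labelled) and 1.03% (WT-labelled). Endothelial shares with 3 or more members at 1000 UMIs were 11.1% and 6.90% in KO-labelled mice 6 and 7 (7 of 85 cells). They were lower in WT-labelled mice 4, 5 and 8, at 0, 2.94% and 4.35% (3 of 116 cells). At 2000 UMIs WT-labelled mouse 5, the only WT-labelled mouse left, lay above both KO-labelled mice. With 2 or more members at 1000 UMIs the endothelial means were 18.7% (KO-labelled) and 20.1% (WT-labelled). No test was made on these shares.

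**Figure D5:**
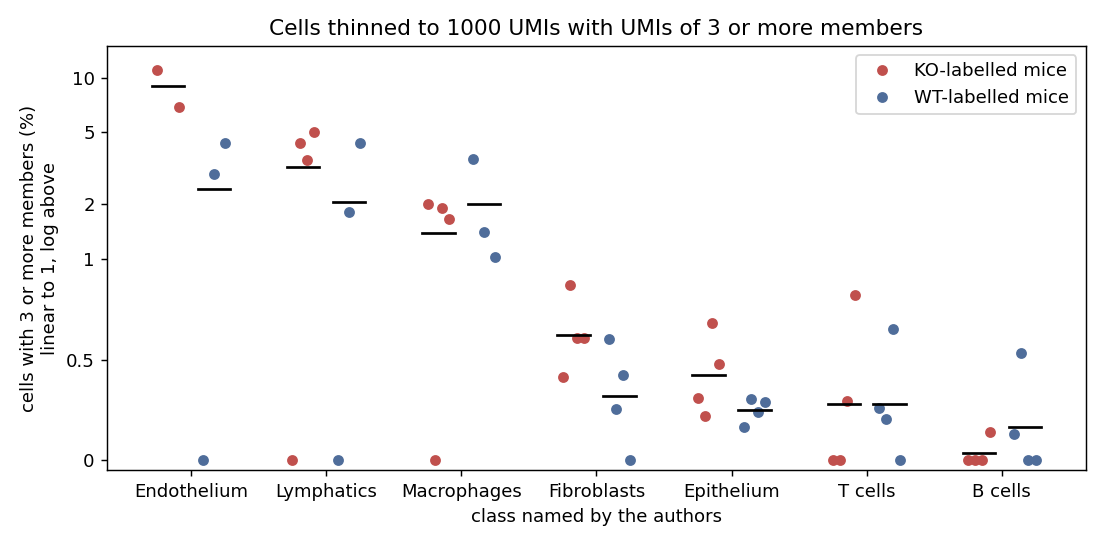
Percent of cells, thinned to 1000 UMIs, that held 3 or more of the 10 interferon response genes, a point for each mouse, with KO-labelled left of WT-labelled in each class. Endothelium and lymphatics have the highest means, though some mice held 0% there and their points overlap those of macrophages. The genotype groups overlap in epithelium.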

How the data were processed

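Single-cell RNA-seq libraries of 4 KO-labelled and 4 WT-labelled mice were analysed. Per the submitters' processing notes the reads were processed with Cell Ranger 3.0.2 against mm10. The deposited matrix holds raw UMI counts per gene and cell. The authors also deposited a size factor per cell (a ratio) and map coordinates (a score), with class and subtype names. The deposited matrix and cell table list the same cells in different orders, and sorting by name made 53080 of 53080 size factors equal, against 16 in file order (tolerance 1e-06). No other sample columns were present (0). Labels give each mouse as a separate animal.

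Subtypes called doublets in the cell table (1316 cells) were removed, leaving 51764 cells. No further doublet caller was run. Counts were summed per mouse and class or subtype (at least 20 cells) and divided by the sum to give CPM. KO-labelled and WT-labelled sums were compared where at least 3 mice per group had a sum, with edgeR 4.0.16 (filterByExpr, TMM, quasi-likelihood test, Benjamini-Hochberg adjusted p under 0.05) in R 4.3.3. DESeq2 1.42.0 was the alternative. Fits were tested on simulated data with known fold changes. The remaining steps ran in Python 3.11.15 (matplotlib 3.10.9, pandas 2.3.3, scipy 1.17.1, numpy 2.4.6). Cells were thinned to 1000 UMIs for shares. Counting intervals are exact Poisson ones at 95% and cover counting error only.

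The 10 genes and the pathway lists (12 ligands and receptors, 12 transducers, 12 sensors, 36 further interferon-stimulated genes of which 35 were used, Mx2 not being analysed here) were chosen with earlier results of these data known. Fold changes are given for every member tested in epithelium, for the member with the smallest p in each other set, and for the 2 genes with the smallest p in each list; likeness of pattern was ranked among genes with at least 500 UMIs. Gene positions are from GENCODE M21 (mm10) and promoters from RefSeq (GRCm38.p6). All settings tried are in the closing section.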

Additional observations from a re-analysis of the deposited data

Results flagged for a closer look

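In groups of 4 mice, the highest or lowest value of a gene in a class stood apart from the other 3 by Dixon's criterion in 6 of 110 groups. Chance alone gives about 1 in 20.

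Bst2 in macrophages stood at 344 CPM in KO-labelled mouse 7 (200 UMIs), against 218 to 223 CPM in the other KO-labelled mice. The sum of the 10 genes in epithelium stood at 180 CPM in WT-labelled mouse 4, where the remaining 3 had 137 to 139 CPM, and Oasl2 in epithelium at 13.2 CPM in WT-labelled mouse 5, against 10.7 to 11.1 CPM.

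The other 3 rested on few molecules. Rsad2 in lymphatics stood at 26.4 CPM in KO-labelled mouse 3 from 2 UMIs, against 0 to 4.13 CPM in the other KO-labelled mice. Ifit3 stood at 0.996 CPM in epithelium of WT-labelled mouse 1 from 8 UMIs, against 0.596 to 0.648 CPM, and at 3.92 CPM in its T cells from 5 UMIs, where the remaining WT-labelled mice had 1.92 to 2.00 CPM.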

How the results depend on the processing

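No paired analysis was made, because the sample labels give no litter and pair no KO-labelled mouse with a WT-labelled mouse. The number of members called stayed at 0 in 16 comparisons under 183 alternative fits (RLE factors, DESeq2, no filter on low counts, doublets kept, cells or genes high in mitochondrial UMIs left out, a mitochondrial covariate, each mouse left out), with a lowest adjusted p of 0.0654 (macrophages, no filter). The interaction had no mitochondrial covariate. Of 273 alternative fold changes 17 reversed, and apart from the leave-one-out fits this was epithelial Oasl2 at -0.0046 with the mitochondrial covariate; the cause was not tested.

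Leaving out each mouse in turn moved the epithelial log2 fold changes between -0.27 and 0.29 for Isg15, between -0.37 and 0.65 for Irf7, between -0.42 and 0.25 for Oasl2 and between -0.058 and 0.15 for Bst2. The lowest values for Isg15, Irf7 and Oasl2 came without KO-labelled mouse 2. Isg15 moved between -0.15 and 0.87 in lymphatics, between -0.52 and 0.34 in memory T cells and between -0.080 and 0.51 in regulatory T cells, and Bst2 between -0.10 and 0.58 in inactive T cells. Epithelial Ifit1 kept its sign, between 0.71 and 1.28.

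With mitochondrial genes out of the total, the epithelial sum of the 10 genes averaged 254 CPM in place of 157.0 CPM. Of 192 alternative levels 15 moved beyond the spread between mice, each with mitochondrial genes out of the total. Shares of cells with 3 or more members at 2000 UMIs were 17.7% in endothelium, 6.76% in lymphatics, 4.45% in macrophages, 1.14% in fibroblasts, 0.770% in epithelium, 0.751% in T cells and 0.369% in B cells. With 2 or more members at 1000 UMIs they were 19.5% in endothelium, 9.34% in lymphatics, 5.01% in macrophages, 2.07% in fibroblasts, 1.62% in epithelium, 1.49% in T cells and 0.944% in B cells. Usp18, Ifit2 and Ifit3 entered the epithelial fit together only without the filter on low counts, where 9 of 10 members were higher and none was called. In most fits that left out 1 mouse, 8 members passed the filter in place of 7.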

Other observations

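Classes with too few cells per mouse were pooled over mice, with exact Poisson intervals that cover counting error only. Neutrophils (32 cells) held Isg15 at 804 CPM (33 UMIs; 553.5 to 1129) and Oasl2 at 389.9 CPM (16 UMIs), with 1 UMI of Bst2. Glia (42 cells) held Isg15 at 193 CPM (20 UMIs) and Ifit3 at 86.7 CPM (9 UMIs), and 0 UMIs of Rsad2. Dendritic cells (33 cells) held Bst2 at 345 CPM (62 UMIs; 264 to 442). Of their 24 Isg15 UMIs, 18 came from 1 cell. Myofibroblasts, with sums from 3 mice, held 0 UMIs of Usp18 and Rsad2.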
